A study of Homo sapiens with 13 samples.

Results

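The nuclear-encoded subunits of the oxidative phosphorylation machinery were taken by gene symbol, as NDUFA, NDUFB, NDUFC, NDUFS and NDUFV genes for complex I, SDHA to SDHD for complex II, UQCR genes and CYC1 for complex III, COX4I1 and the COX5 to COX8 genes for complex IV and ATP5 genes for complex V. The rule gave 87 symbols of the 26676 in both deposited tables, which stand for 86 genes because UQCR in one table and UQCR11 in the other name the same gene. Complex I had 38 symbols, complex II 4, complex III 11, complex IV 16 and complex V 18. The complex was assigned by symbol alone, which also placed NDUFA4 in complex I. The pseudogene symbols ATP5EP2 and UQCRBP1 were left out, while ATP5S and ATP5SL were kept because they match the rule, although their products are not structural subunits of the ATP synthase. Cells were MDA-MB-231, a triple-negative human breast cancer line, given DMSO or 25 nM Silvestrol, an inhibitor of the RNA helicase eIF4A, for 1 h or 2 h, or DMSO or 200 nM INK128, an inhibitor of the mTOR kinase, for 2 h. Ribosome footprints (RFs) were sequenced from untreated cells and from every treatment, and translational efficiency (TE) is the ratio of RFs to RNA. The 2 h Silvestrol and DMSO treatments had 2 RF libraries each, from passage 3 and passage 4 of the line, and every other condition and every RNA library was single. RNA was poly(A) mRNA in the Silvestrol experiment, from passage 3 only, and total RNA in the INK128 experiment.

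The respiratory chain passes electrons from NADH through complex I, or from succinate through complex II, to ubiquinone, then through complex III and cytochrome c to complex IV, which reduces oxygen. Complexes I, III and IV pump protons across the inner mitochondrial membrane, and complex V, the ATP synthase, uses that gradient to make ATP. Most subunits are encoded in the nucleus, made on cytosolic ribosomes and imported, and they assemble with the mitochondrially encoded subunits, which are not analysed here. Cytosolic translation of several respiratory chain subunits is known to respond to mTOR.

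Counted reads ranged from 2652423 to 31188148 over the 7 RF libraries of the Silvestrol experiment, with the fewest in passage 4 with Silvestrol, and were 50315607 for control mRNA and 24792922 for Silvestrol mRNA. The INK128 table gives FPKM values without counts, so its depth is unknown. The label fields of 2 libraries conflict. The Silvestrol RF library of passage 3 at 2 h carries a field saying 1 h, and the control mRNA library a field saying untreated, and both were placed by their titles. Every TE change with Silvestrol rests on that control mRNA library. Among markers expected in the line, VIM, a mesenchymal filament, had an RF RPKM of 4790 to 7030 and CD44 of 138 to 344. KRT18 stood at 47.4 to 95.4 and EGFR at 18.4 to 29.5. Of those expected to be absent or low, ESR1 had no RFs and PGR at most 0.0419 RPKM. ERBB2 stayed between 1.63 and 4.05 RPKM in RFs, while its control mRNA was 25.8 RPKM, beside 32.2 for EGFR. RPKM and FPKM divide reads or fragments by the length of the transcript and the size of the library, so a loss shared by all genes is not seen in them, and in these bulk libraries fewer cells of a kind cannot be told apart from less RNA per cell.

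Of the 81 symbols in the Silvestrol table, 73 passed the filter on low values, which kept a gene with reads in every passage 3 library of the 2 h comparison if its RPKM averaged 1 or more for RFs and 0.3 or more for mRNA. The isoforms COX6A2 and COX7A1, known from heart and skeletal muscle, and COX8C, known from testis, had 0 reads in all 9 libraries, and the testis isoform COX6B2 had between 0 and 4 RF reads. COX7C and NDUFA4, by contrast, had 0 RF reads in all 7 RF libraries while their control mRNA held 879 and 1072 reads. Both had RFs in the INK128 table, with an RF FPKM of 989.8 for COX7C and 62.84 for NDUFA4 in DMSO cells, so an absence of translation cannot be read from the first table. COX6A1 had 0 to 17 RF reads and UQCRHL had RF reads only in passage 4, with 38 for DMSO and 22 for Silvestrol.

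The authors counted only uniquely mapped reads and left out positions with non-unique reads, and many subunit genes have processed copies in the genome. Of the coding 30-base words of COX7C, 65.6% had an exact copy elsewhere in GRCh37, and of those of NDUFA4, 59.3%. The word of COX7C with the most copies is shown here in lower case as an example of a stretch copied elsewhere. It lies at chr5:85915170-85915199 on the plus strand in GRCh37.
COX7C: aatttgccattttcagtggaaaacaagtgg
This word, coding bases 76 to 105, had 3 other copies. Whether reads that span it were placed uniquely was not tested. The length over which reads were counted, taken as reads over RPKM and set against the coding length, had a median of 74.0% over the members that passed and 98.6% over all genes. It was lowest in complex II, with a median of 22.2%, followed by 38.5% in complex V and 47.2% in complex IV, and highest in complex I with 89.0%. Across the 73 members it ran opposite to the share of copied words (Spearman's rho −0.85, over genes, as a description). SDHD, a membrane anchor of complex II, held 1 to 6 RF reads in each of the 7 libraries and UQCRFS1, the Rieske iron-sulfur protein of complex III, 9 to 26, so their values are imprecise. In all, 16 of the 73 members had fewer than 100 reads in a DMSO or Silvestrol RF library, and 9 did so in a library of passage 3. They were NDUFA5, NDUFB3, NDUFB4, NDUFV2, SDHA, SDHC, SDHD, UQCRFS1, UQCRH, COX7B2, ATP5G1, ATP5G2, ATP5H, ATP5J, ATP5L and ATP5S.

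**Figure D1:**
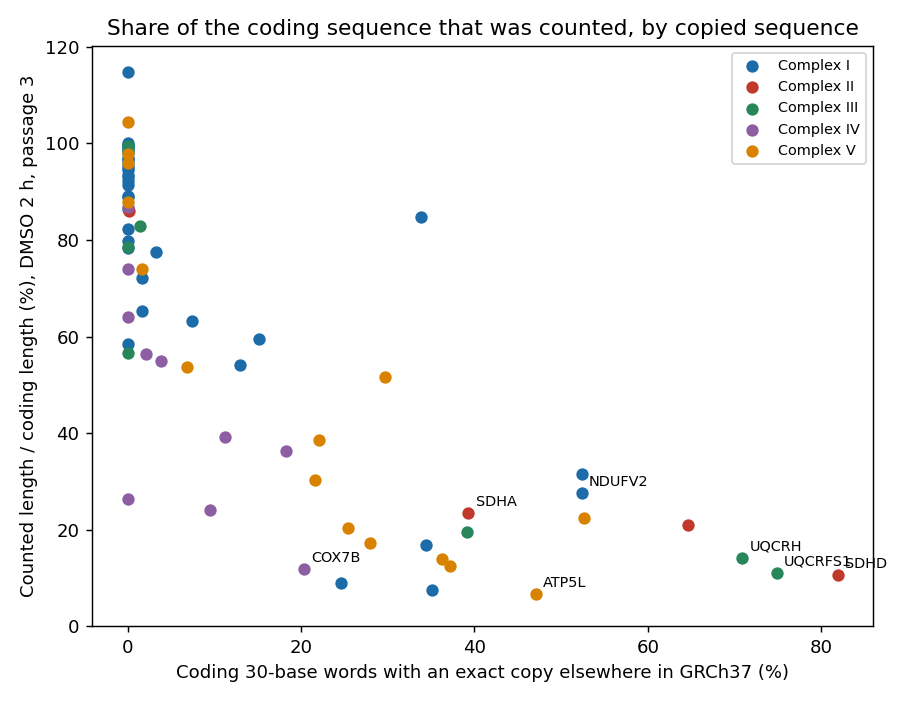
Length over which RF reads were counted, as a percentage of the coding length, in the DMSO 2 h library of passage 3, against the percentage of 30-base words of the coding sequence that have an exact copy elsewhere in GRCh37. Each point is 1 member, coloured by complex. Members with over 60% copied words lie under 25% on the y axis.

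In control cells the RF levels of most subunits lay above those of a typical gene. The median RF RPKM of the members was 319 in the DMSO 2 h library of passage 3 and 315 in that of passage 4, where the medians of all 10526 genes used were 20.8 and 21.5. By complex the passage 3 medians were 281 for complex I, 121 for II, 346 for III, 603 for IV and 375 for V, and in the DMSO cells of the INK128 experiment complex IV again had the highest median, at an RF FPKM of 448, and complex II the lowest, at 70.3. ATP5B, the catalytic β subunit of the F1 head, held the most RF reads of all members, 144265 over the control libraries. The most-read members of the other complexes were NDUFA11 with 33664 reads, SDHB, the iron-sulfur subunit of complex II, with 18440, UQCRC1, a core protein of complex III, with 48079, and COX8A, a small membrane subunit of complex IV, with 41259. Among the F1 subunits the RF RPKM in that DMSO library was 1033 for ATP5B and 409 for ATP5A1, the β and α subunits that are present in several copies per head, and 545 for ATP5C1, 375 for ATP5D and 3519 for ATP5E, which are present singly. The ATP5E value rests on a counted length of 13.9% of its short coding sequence. Median TE in control cells was 2.38 for the members and 1.84 for all genes, and the medians of the complexes ran from 1.91 in III to 2.67 in I.

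With Silvestrol at 2 h, most subunits had a larger share of the footprints than with DMSO. The rise passed the test for ATP5B, COX5B, UQCRC2 and several complex I subunits. RPKM and scaled counts are relative to the library and do not give footprints per cell. ATP5B had an RF RPKM of 1033 and 929 with DMSO in passages 3 and 4, and of 1635 and 1419 with Silvestrol. COX5B, a peripheral subunit of complex IV, went from 565 and 499 to 968 and 821, and UQCRC2, a core protein of complex III, from 156 and 155 to 254 and 235. In all 3 genes both Silvestrol libraries lay above both DMSO libraries and above the untreated library, at 1125 for ATP5B, 550 for COX5B and 166 for UQCRC2. The log2 changes in edgeR's quasi-likelihood test were 0.76 ± 0.12 (SE, n = 2 libraries per treatment, adjusted p = 0.029) for ATP5B, 0.85 ± 0.13 (0.028) for COX5B and 0.79 ± 0.12 (0.028) for UQCRC2.

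**Figure D2:**
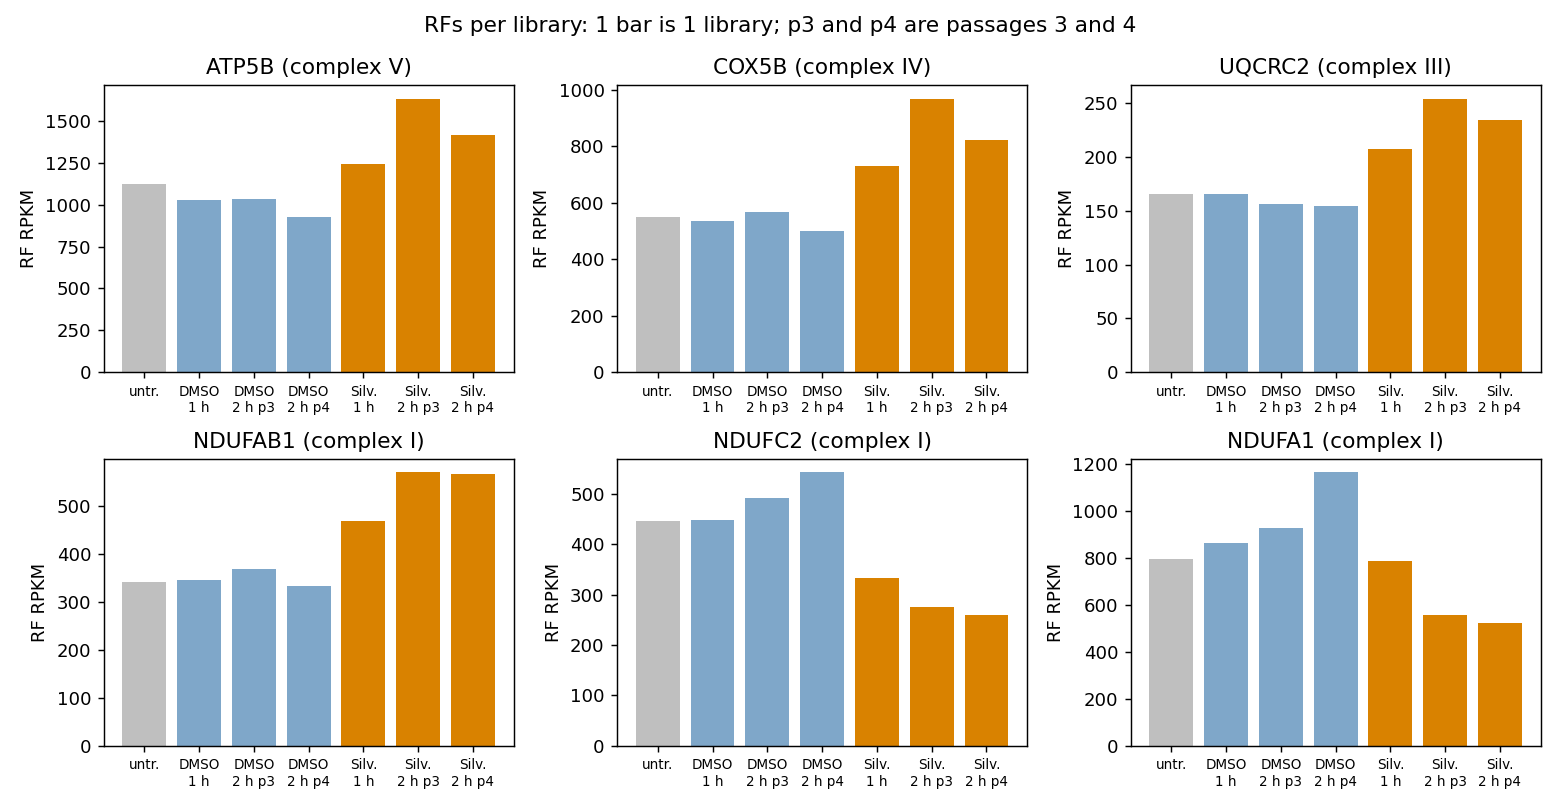
RF RPKM of 6 members in each of the 7 RF libraries of the Silvestrol experiment, 1 bar per library (grey untreated, blue DMSO, orange Silvestrol, p3 and p4 the passages). ATP5B, COX5B, UQCRC2 and NDUFAB1 are higher in each Silvestrol library than in the 4 control libraries, and NDUFC2 and NDUFA1 are lower.

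Of the 73 members, 10 passed the RF test as higher and 1 as lower, where 2.16% and 7.58% of all genes did so. The higher members were COX5B, UQCRC2, ATP5B, ATP5I and, in complex I, NDUFAB1, NDUFB5, NDUFB9, NDUFS3, NDUFS6 and NDUFV3. In complex I the called changes were highest for NDUFV3, an accessory subunit of the NADH-oxidising arm, at 0.88 ± 0.15 (adjusted p = 0.035), and for NDUFB9, a membrane arm subunit, at 0.84 ± 0.17 (0.045). The RF RPKM of NDUFAB1, the mitochondrial acyl carrier protein, went from 369 and 332 to 570 and 566 (0.82 ± 0.13, adjusted p = 0.031). The lowest called rise was that of NDUFS3, a core subunit near the quinone site, at 0.64 ± 0.12 (0.040), and ATP5I, the membrane subunit e of the ATP synthase, rose by 0.75 ± 0.16 (0.048). The median log2 change was 0.54 over the members and −0.01 over all genes, and 63 of 73 members were above 0. By complex the median was 0.39 in I, 0.50 in II, 0.56 in III, 0.57 in IV and 0.54 in V. In complex I it was 0.61 over the 7 conserved core subunits and 0.39 over the 29 accessory ones.

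The passages are paired by the labels, and a passage block raised the counts to 50 members higher and 7 lower, beside 25.0% and 28.1% of all genes. The 50 included 7 of 8 members in complex III, 8 of 10 in IV, 25 of 36 in I, 8 of 15 in V and 2 of 4 in II, of which SDHA had 0 and 1 reads in passage 4. DESeq2 without the block called 25 higher and 2 lower of the 66 members to which it gave an adjusted p, beside 6.92% and 11.4% of genes. Without the Silvestrol library of passage 3, or without that of passage 4, edgeR called 0 members and 0 of the 10526 genes, with the lone Silvestrol library taken to vary like the DMSO libraries. Relative to the median of all genes, RFs were higher in both passages for 51 of 72 members, where 40.8% of genes were, and lower in both for 9, where 40.7% of genes were. SDHA has no value in passage 4 in this count.

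**Figure D3:**
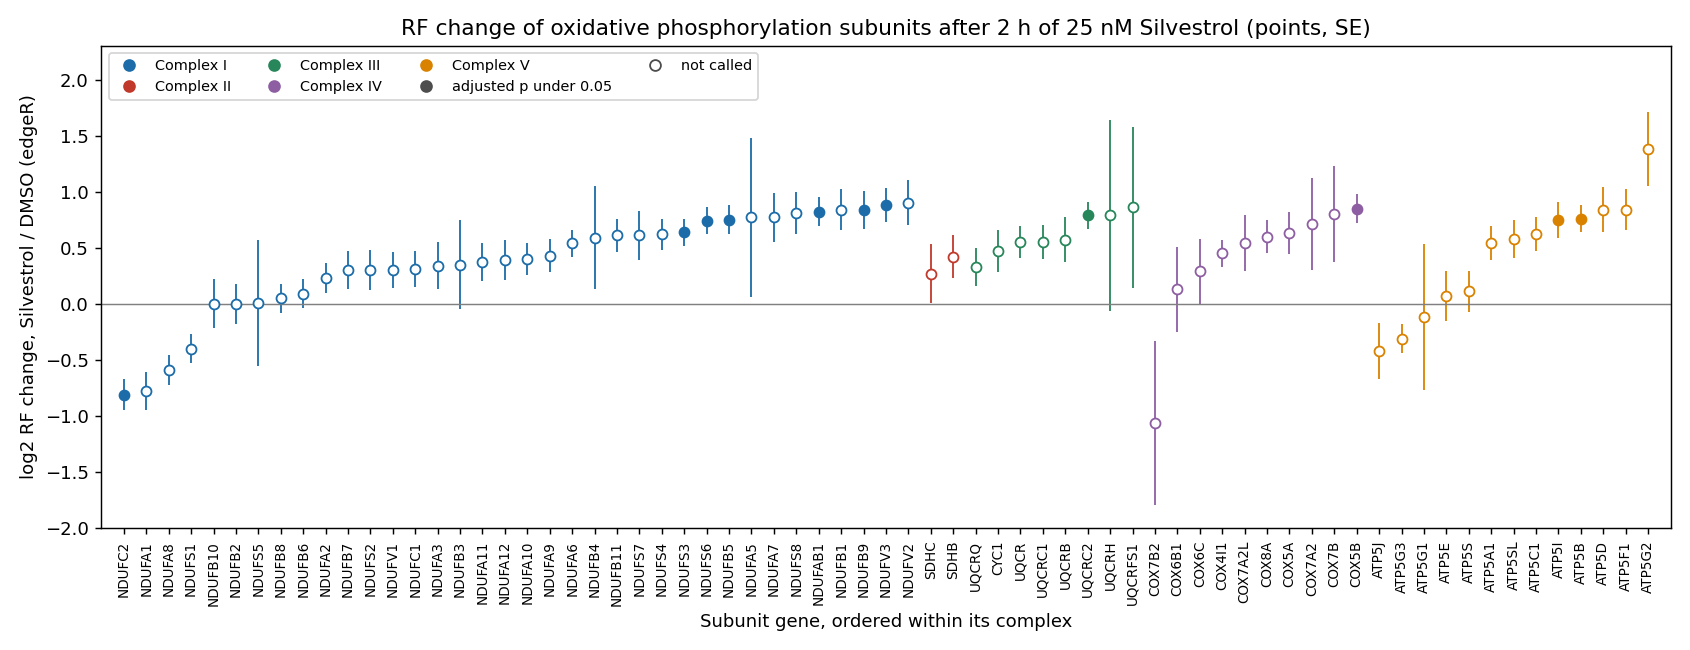
log2 change of RF counts after 2 h of Silvestrol against DMSO (y axis, edgeR fit of 2 against 2 libraries) for 69 members ordered within each complex, as points with standard errors. Filled points passed an adjusted p of 0.05, and the 4 members with a standard error above 1 (ATP5H, ATP5L, SDHA and SDHD) are not drawn. Most points lie above 0, and the complex I genes NDUFC2, NDUFA1, NDUFA8 and NDUFS1 stand apart below it.

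A few complex I subunits went the other way. NDUFC2, a subunit of the membrane arm, had an RF RPKM of 492 and 543 with DMSO and of 276 and 259 with Silvestrol, and was the only member called lower, by −0.81 ± 0.14 (adjusted p = 0.035). It was also the lowest complex I member at 1 h. Its mRNA RPKM was 60.7 in the control and 55.6 with Silvestrol. NDUFA1, an accessory subunit of the same arm, went from 926 and 1164 to 557 and 521, and its change of −0.78 ± 0.17 missed the threshold (adjusted p = 0.051), while DESeq2 called it lower (0.014). NDUFA8 at −0.59 ± 0.13 (0.055) and NDUFS1, the largest core subunit, at −0.40 ± 0.13 (0.11) were not called either, and all 4 were called lower with the passage block. In complex V, ATP5G3 had a change of −0.31 ± 0.13 (0.18) and ATP5J, coupling factor 6 of the peripheral stalk, −0.42 ± 0.25 (0.32), and both were called lower only with the block. COX7B2 had the lowest log2 RF change of the 73 members, −1.06 ± 0.73 (0.37), on 94 and 7 reads with DMSO and 16 and 2 with Silvestrol, and was called lower with the block (adjusted p = 0.027).

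The c ring of the ATP synthase is built from 1 mature protein that ATP5G1, ATP5G2 and ATP5G3 all encode, with different import sequences. In the DMSO cells of the INK128 experiment the RF FPKM was 338 for ATP5G3, 181.1 for ATP5G1 and 156.8 for ATP5G2. In the Silvestrol experiment ATP5G3 held most of their RFs, at 1303 and 1401 RPKM with DMSO and 1006 and 889 with Silvestrol. There the counted length was 17.2% of the coding length for ATP5G1, 51.6% for ATP5G2 and 53.7% for ATP5G3. ATP5G2 went from 28.6 and 32.1 RPKM to 62.4 and 76.9, and ATP5G1 from 33.7 and 49.6 to 22.7 and 26.3. These 2 genes had only 19 to 321 reads in any treated or DMSO RF library, and no change among the c ring genes passed the edgeR test, ATP5G2 at 1.38 ± 0.33 (adjusted p = 0.060). With the passage block edgeR called ATP5G2 higher (adjusted p = 4.2e-10), and DESeq2 without it did so too (0.0049). Of their coding 30-base words 28.0% in ATP5G1, 29.7% in ATP5G2 and 6.8% in ATP5G3 had an exact copy elsewhere in the genome, and whether reads were assigned to the wrong paralog was not tested. The paralogs COX7A2, a complex IV subunit, and COX7A2L, a factor of respiratory supercomplexes, had log2 changes of 0.71 ± 0.41 (0.30) and 0.54 ± 0.25 (0.21) and were both called higher with the block (adjusted p = 8.8e-09 and 1.9e-05).

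At 1 h, in 1 library per treatment and therefore with no replicate check, the members' median log2 RF change relative to all genes was 0.31 over 71 members, against 0.57 in passage 3 and 0.47 in passage 4 at 2 h. At least 1.5-fold higher were 14 members, where 5.0% of genes were, and 2 were lower, where 14.1% were. Without centring on the median of all genes 7 were higher and 3 lower, beside 1.64% and 21.9% of genes. Of the 14, NDUFAB1, NDUFB5, NDUFS6, NDUFV3, COX5B and ATP5I were also called higher at 2 h. COX5B stood at 534 RPKM with DMSO and 730 with Silvestrol, and ATP5B at 1029 and 1244. The 2 lower members, UQCRH and ATP5G1, went from 78 to 26 and from 93 to 43 reads. The median log2 change of all genes, which was subtracted, was −0.18 at 1 h and −0.17 and −0.15 in the passages at 2 h. Between control libraries, DMSO against untreated gave a median of 0.02 at 1 h and 0.11 at 2 h, with 45 of 71 and 54 of 73 members above the median of all genes. At 1 h 4 members were higher and 0 lower by 1.5-fold, where 2.33% and 0.856% of genes were, and at 2 h 4 were higher and 2 lower, where 2.36% and 1.49% were. These included SDHD, UQCRFS1, UQCRH and ATP5G1, which have few reads.

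In mRNA most subunits had lower values with Silvestrol, with 55 of 73 below the median of all genes. ATP5B mRNA was 695 RPKM in the control and 393 with Silvestrol, COX5B mRNA 573 and 336, and CYC1, the cytochrome c1 subunit of complex III, 364 and 211. Relative to all genes the members' median mRNA change was −0.34 on the log2 scale. At least 1.5-fold lower were 16 members, where 13.8% of genes were, and 4 were higher, where 16.3% were. The 16 include SDHA, whose mRNA reads lie in different entries of the table in the 2 libraries. The lower ones included 4 of 8 complex III members (CYC1, UQCRC1, UQCRFS1 and UQCRQ) and, in complex V, ATP5A1, ATP5B, ATP5G1, ATP5G2 and ATP5H. The 4 higher ones were NDUFA5, NDUFS4, SDHD and COX7B2, of which COX7B2 rests on 31 and 44 mRNA reads. The mRNA libraries are single, so these changes have no replicate check, and whether both were counted alike was not tested.

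**Figure D4:**
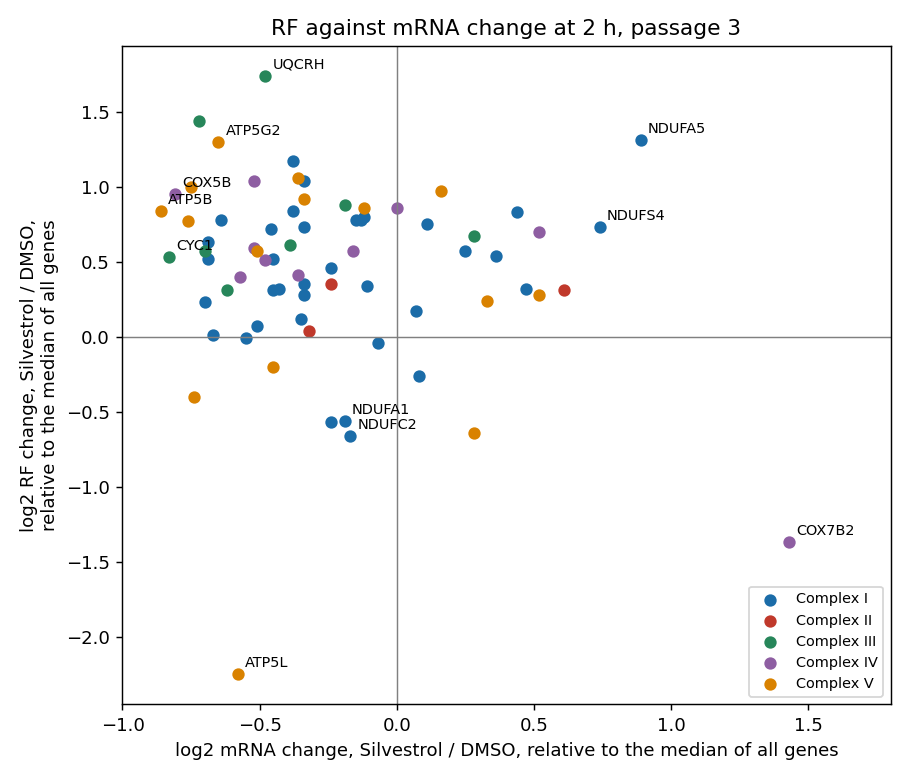
log2 RF change (y axis) against log2 mRNA change (x axis) after 2 h of Silvestrol in passage 3, each relative to the median of all genes, for the 73 members that passed except SDHA. Points are genes coloured by complex. Most lie in the upper left, with RFs above and mRNA below the median of all genes, and NDUFC2 and NDUFA1 lie below 0 on both axes.

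The change in TE sets both values against each other. The z-score of the log2 change in TE, standardized over all genes in passage 3, had a median of 0.86 over the members, and was above 0 for 63 of 73. Complex III had the highest median, 1.26, followed by 1.08 in V, 1.00 in IV, 0.75 in I and 0.57 in II. When passage 4 RFs replaced those of passage 3, the complexes had medians of 1.15 in III, 0.95 in IV, 0.78 in I, 0.67 in V and 0.31 in II, so that complex III stayed highest and complex V moved from the second to the fourth place. Past 1.5 were 12 members, where 4.36% of genes were, and past −1.5 were 2, where 6.29% were. The 12 include SDHA, whose value is uncertain. With the RFs of passage 4, 7 of 72 members were past 1.5 and 1 past −1.5, beside 4.74% and 6.72% of genes. ATP5B (z = 1.78), COX5B (1.84), ATP5A1 (1.61) and NDUFS8, a core iron-sulfur subunit of complex I (1.51), are among the 12 with ample reads. In each complex the highest z-scores were 1.63 for NDUFV2, 2.3 for UQCRH, 1.84 for COX5B and 2.03 for ATP5G2, of which the UQCRH value rests on 22 and 36 RF reads and the NDUFV2 value on 444 and 408. The lowest were −0.40 for NDUFC2, −0.21 for SDHD, 0.48 for UQCRB, −2.69 for COX7B2 and −1.57 for ATP5L. RF reads of COX7B2, a testis isoform, numbered 94 in DMSO cells and 16 in Silvestrol cells, and those of ATP5L 115 and 10 in passage 3 against 190 and 100 in passage 4, where its z-score was 1.20.

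SDHA, the flavoprotein subunit of complex II, had a z-score of 10.21 that rests on reads split between entries, so its translation is uncertain. The table has 3 entries for this gene. The entry used held 1989 and 1284 RF reads with DMSO and Silvestrol in passage 3 but 0 and 1 in passage 4, and 3021 mRNA reads in the control but 1 with Silvestrol, while another entry held 526 and 343 RF reads in passage 4 and 5 and 1008 mRNA reads. With the entries summed, an alternative chosen after these values were seen, the z-score of SDHA was 1.90. In the INK128 table it was 0.52. The Silvestrol mRNA library had most SDHA reads in the same entry as the passage 4 RF libraries. The control mRNA library had them in that of the passage 3 RF libraries. Whether the libraries were counted differently for other genes was not tested, and it bears on every mRNA and TE change with Silvestrol.

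In the model of RF and mRNA counts, which tests the change in TE over 6 libraries with 1 mRNA library per treatment, edgeR called 0 members and 0% of genes at an adjusted p of 0.05. At an unadjusted p under 0.05, 34 of 73 members were higher and 0 lower, beside 10.3% and 14.2% of genes. DESeq2 called 19 of 63 members higher and 0 lower, beside 5.2% and 7.07% of genes, and edgeR with the passage block called 49 higher and 3 lower, beside 23.1% and 22.8%. The 49 include SDHA, whose TE change is uncertain. The 3 lower were NDUFC2, ATP5J and COX7B2. With all 6 libraries the median log2 change in TE was 0.84 over the members and −0.01 over all genes, and with scaling by library size alone 0.59 and −0.25. Without the DMSO library of passage 3 it was 0.74 and −0.04. In that fit only the Silvestrol RF libraries give a spread, so no calls are drawn from it.

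The transcripts of these genes share features that the symbols did not use. In GENCODE models the 5′ UTR had a median of 54.0 bases over the 73 members and 132 over 10379 genes, and the coding sequence 435 against 1383 bases. The 5′ UTR was shortest in complex II, with a median of 30 bases, and longest in complex IV, with 64.0, and its GC content had a median of 64.2% over the members and 67.9% over all genes. Across the members the z-score of TE with Silvestrol ran weakly opposite to the 5′ UTR length (Spearman's rho −0.27, n = 73 genes) and across all genes more strongly (−0.53, n = 10379), both as a description over genes of the same libraries. With the coding length it ran the other way over the members (0.32) than over all genes (−0.18). The first 15 bases of the annotated transcript are shown for the members on which the results turn, with a run of pyrimidines in capitals where the transcript opens with a C and at least 4 further pyrimidines, the start known from mRNAs that respond to mTOR. In GRCh37 they lie at chr12:57039754-57039768 (minus strand) for ATP5B, chr2:98262525-98262539 (plus) for COX5B, chr16:21964682-21964696 (plus) for UQCRC2, chr11:77790894-77790908 (minus) for NDUFC2, chr2:176046424-176046438 (minus) for ATP5G3, chr5:85913758-85913772 (plus) for COX7C and chr1:46769370-46769384 (plus) for UQCRH.
ATP5B: agtctccacccggac
COX5B: agttttgctgctagt
UQCRC2: ctccgccaccatctt
NDUFC2: gagtccggcgcgcag
ATP5G3: agtcccactccttcg
COX7C: CTTTTCagtccttgc
UQCRH: CTTCTTgatcctgaa
Such a start was found, on the transcribed strand, in 8 of 69 members with a 5′ UTR long enough, 11.59%, and in 5.54% of 10082 genes.

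With INK128 few subunits passed a threshold, while RFs of 62 of the 80 members that passed the filter lay below the median of all genes and those of 18 above it. Their median log2 change relative to all genes was −0.11 for RFs and −0.06 for total RNA, and the median z-score of TE was −0.03, where that of all genes was 0.13. That order turned with a pseudocount of 0.5, at 0.51 for the members and 0.05 for all genes, with one of 0.1, at 0.20 and 0.13, and with a minimum of 5, at 0.42 over 27 members and 0.26, so no direction is drawn from it. RFs of ATP5B were 432 FPKM with DMSO and 410 with INK128, those of COX5B 463 and 445, and those of NDUFC2 25.3 and 25.8. Each of the 4 INK128 libraries is single, so none of these differences has a replicate check. By complex the median z-score was 0.03 in I, 0.56 in II, −0.11 in III, −0.07 in IV and −0.16 in V, and all 4 complex II members were above 0, from 0.13 for SDHD to 0.76 for SDHB. Of the 80 members that passed in this table, 0 were past 1.5, where 1.75% of genes were, and 1 was past −1.5, where 5.58% were. In total RNA the median of all genes fell by 1.17 on the log2 scale, and changes are given relative to it.

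**Figure D5:**
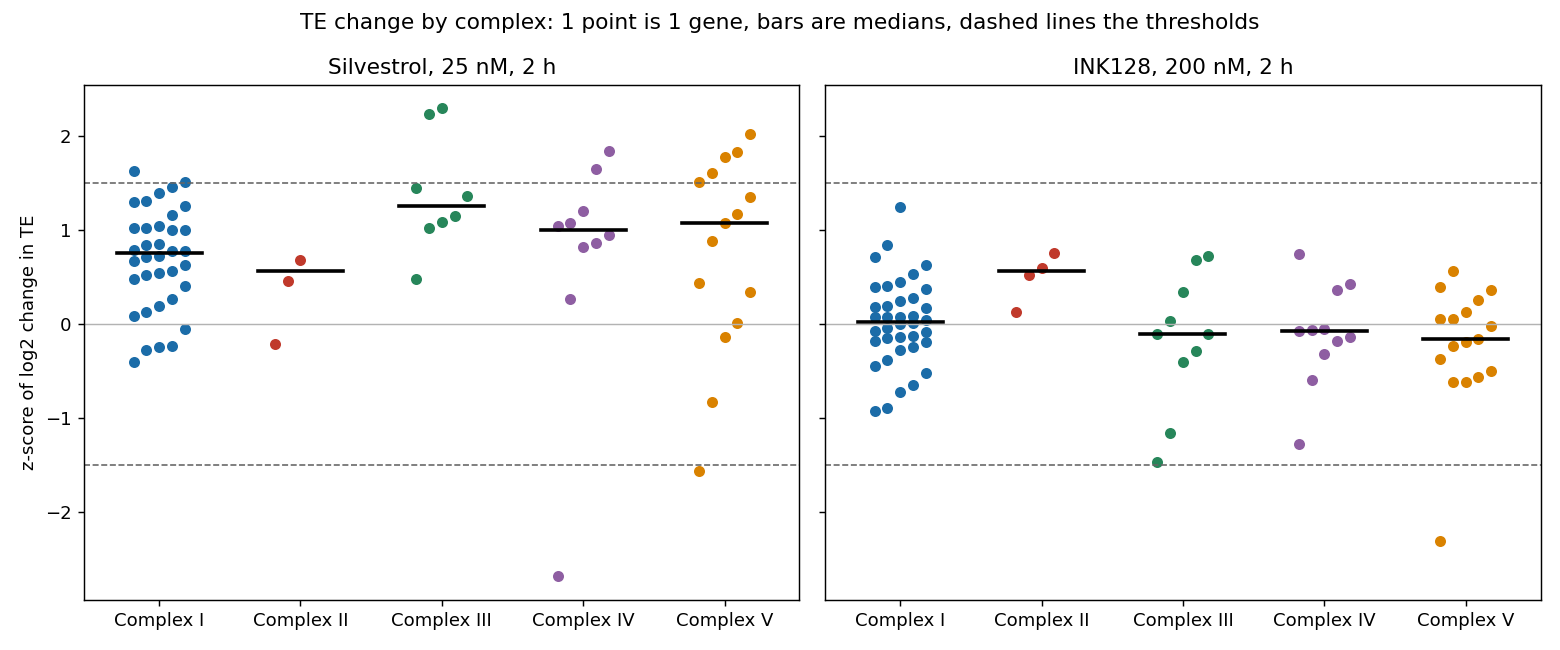
z-score of the log2 change in TE (y axis) of each member by complex (x axis), with Silvestrol on the left and INK128 on the right. Points are genes, bars are medians over all members of a complex, dashed lines mark −1.5 and 1.5, and the Silvestrol value of SDHA, 10.21, is not drawn. Medians lie between 0.57 and 1.26 with Silvestrol and between −0.16 and 0.56 with INK128.

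The member past −1.5 was ATP5G3, with a z-score of −2.31. Its RF FPKM was 338 with DMSO and 385.5 with INK128, and its total RNA FPKM 435 and 517.5. Total RNA was 6.68 and 3.12 FPKM for ATP5G1 and 7.18 and 3.17 for ATP5G2, or 0.07 and −0.01 relative to all genes. In the control poly(A) mRNA of the Silvestrol experiment ATP5G3 had 103 RPKM, ATP5G1 86.4 and ATP5G2 39.9. TE of ATP5G3 in the DMSO cells of the INK128 experiment was 0.778, the lowest of the members, whose median was 32.4. The cause was not tested. The total RNA level of ATP5G3 was the highest of all members in both libraries, and its RFs were not lower. UQCRB, a small subunit of complex III, had the largest drop in RFs, from 34.5 to 21.2 FPKM, or −0.71 relative to all genes. Its z-score of −1.47 rests on total RNA of 0.45 and 0.21 FPKM, near the filter's minimum average of 0.3. UQCRH, the hinge protein of complex III, went from 217 to 154 (z = −1.16), and its near copy UQCRHL from 80.5 to 53.9. UQCRB and UQCRHL were the 2 members at least 1.5-fold lower in RFs, where 3.62% of genes were, and 0 were higher, where 3.83% were. In total RNA, ATP5G3 and COX6C were 1.5-fold higher, where 7.97% of genes were, and UQCRHL was lower, where 2.42% were. The lowest z-score in complex I was −0.93 for NDUFB3 and in complex IV −1.28 for COX6C, and the highest z-scores were 1.25 for NDUFC1, 0.72 for UQCRQ, 0.75 for COX7A2 and 0.57 for ATP5J. The 10 members with the pyrimidine start, among them UQCRB, UQCRH, COX7C, COX4I1 and ATP5O, had a median z-score of −0.58, and the 63 without it 0.04, where all genes with and without it had −0.28 and 0.18. Over the 70 members in both tables the z-scores of the drugs showed no clear relation (Spearman's rho −0.10, over genes).

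The proteins that assemble the complexes or regulate their genes were counted as lists, and their difference from the subunits was not tested. Of 50 listed assembly factors, 29 passed the filter, 1 was called higher in RFs, 0 were called lower, and their median log2 change was 0.21, with a median z-score of 0.38. The factor called was NDUFAF3, which acts in the early assembly of complex I, at 0.91 ± 0.16 (adjusted p = 0.037). With the passage block 9 were higher and 2 lower, where 25.0% and 28.1% of all genes were, against 2.16% and 7.58% without it. Of 11 nuclear regulators 0 were called, and their median change was 0.12, with 0.12 ± 0.17 (0.67) for TFAM, the packaging factor of mitochondrial DNA, and −0.04 ± 0.21 (0.92) for NRF1, a transcription factor of respiratory genes. With the block 4 were higher and 1 lower, beside the same 25.0% and 28.1% of all genes. CYCS, the soluble electron carrier, had an RF RPKM of 0 in the DMSO library of passage 3 and a z-score of −0.59 with INK128.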

How the data were processed

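RF and RNA libraries of MDA-MB-231 cells were read from the tables of the Silvestrol and INK128 experiments and grouped by sample labels. For the Silvestrol experiment the authors deposited read counts per transcript, after removal of rRNA reads and alignment with Bowtie to hg19 and UCSC KnownGene canonical transcripts, counting uniquely mapped reads. The authors also deposited RPKM values, which leave out positions with non-unique reads. The INK128 table holds FPKM values deposited by the authors, and the program that made them is not given in the sources used here. The submitters' processing notes name CASAVA 1.8.1 and Bowtie2. Columns of the authors' own TE, TE changes and scores were not used, and 2 columns with log2 copies of INK128 FPKM values were left out.

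Repeated lines were dropped (38897 lines, 25758 distinct), and where a symbol had several entries, that with the largest average RF RPKM stood for it. Counts of all 10526 genes that passed the filter were fitted with edgeR 4.0.16 in R 4.3.3 (TMM, glmQLFit, glmQLFTest, Benjamini-Hochberg over all genes, threshold 0.05), as 2 against 2 RF libraries and, for TE, as the interaction of assay and treatment over 6 libraries. DESeq2 1.42.0 was an alternative. The passage 4 libraries are biological replicates per the labels and methods. In the RF fit without the passage block, p-values measure the spread between these 2 passages. With the block that spread is taken out, and p-values rest largely on variation estimated across genes. In the TE fits the single mRNA libraries add no spread. Unreplicated changes are log2 ratios of RPKM or FPKM without a pseudocount, minus the median of all genes, with 1.5-fold as threshold, and the z-scores are over 10526 genes (Silvestrol) or 7102 genes (INK128). Deviations of the passages correlated between DMSO and Silvestrol (r = 0.59 over 10436 genes), and the labels give the passages, so the numbers pair the samples. The fitting code was tested on simulated data first.

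Transcript models were those of GENCODE 44 lifted to GRCh37, the build that the authors call hg19, with 10379 of 10526 genes matched. Some sequences are not reported here. The members and lists were chosen with earlier results of these data known. Named were, per complex, the most-read member, the called members (2 highest and 2 lowest where there were more), the highest and lowest z-scores, members with under 100 reads and the c ring and COX7A2 paralogs. Other genes, such as NDUFA1, NDUFA8 and NDUFS1, were named after their values were seen. Alternatives covered the block, scaling, filters, pseudocounts, centring, the counted length as offset and each replicate left out.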

Additional observations from a re-analysis of the deposited data

How the results depend on the processing

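Against 11 members called in RFs, 57 were called with the passage as a block, 56 with the block and an offset for the counted length (chosen after seeing the data), 27 by DESeq2, 19 without a filter and 19 with entries of a symbol summed (also chosen after seeing the data). Leaving out 1 library gave 0 to 16, with 0 without either Silvestrol library. Against 0 members called in TE, 52 were called with the block, 47 with the block and the offset, 19 by DESeq2 and 1 without a filter, and leaving out 1 library gave 0 to 10. Other scalings, a minimum of 5 and the offset alone kept both counts within 1.5 times. Single calls still moved in RFs. Scaling by library size gave 9 higher and 3 lower, and a minimum of 5 gave 12 and 3. ATP5I was not called with scaling by library size (0.69, edgeR adjusted p = 0.058), nor NDUFB9 with the offset alone (0.79, 0.061). Members past a z-score of 1.5 or −1.5 with Silvestrol numbered 14, and 8 with the RFs of passage 4, 8 without minimum values and 9 with untreated RFs as control. At 1 h, 16 members were past 1.5-fold (14 higher), and 10 without centring (7 higher). DMSO against untreated at 1 h gave 4, and 7 with a pseudocount of 0.5 or 0.1. With INK128, 1 member was past the z-score threshold, 4 with a pseudocount of 0.5, 2 with 0.1, 8 with median and MAD (1 higher and 7 lower, beside 6.86% and 12.3% of genes), 2 without minimum values and 0 with a minimum of 5. Past 1.5-fold in RFs were 2, 0 with a minimum of 5 and 1 without centring. Past it in total RNA were 3, 6 with a pseudocount of 0.5, 1 with 0.1, 1 with a minimum of 5 and 78 without centring, all lower, beside 92.0% of genes. A minimum of 5 left 27 members in that table. The cause of the other differences was not tested. None of the 11 members called in RFs changed sign under the 13 alternatives run for them. These refit the same libraries from which the 11 were picked, so a kept sign is not independent support. ATP5L, past −1.5 in TE, had a z-score of 1.20 with the RFs of passage 4. Passage 4, with the fewest reads, limits the precision of members with a short counted length, and single RNA libraries limit every TE value.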
